A study of Mus musculus with 10 samples.

Results

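The genes described here are 42 genes of mitosis, the stage of the cell cycle in which duplicated chromosomes are pulled apart and the cell divides. They were taken from the expression table by a fixed list of symbols, with the transcript of highest mean level kept for each symbol. All 42 were found, and all 42 were among the 12168 of 23370 gene symbols that reached 1 RPKM in at least 2 libraries. RPKM (reads per kilobase of transcript, divided by the library size) is a level per transcript length, so it can be compared between genes. Mean levels over the libraries ran from 8.56 RPKM for Cenpf to 97.8 RPKM for Ube2c, and single libraries held between 1585 and 91253 reads for a member. At the lowest of these counts the counting error of a single library is 2.51%.

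Total RNA was sequenced from mouse embryonic fibroblasts (MEFs), connective tissue cells grown out of embryos, of C57BL/6 mice. In all libraries the cells carried the H3.3b-HA knock-in, in which a cDNA for the histone variant H3.3 with an HA tag stands in place of the H3f3b gene, so wild-type cells are not among the groups. The naive arm was sampled at 0, 1, 2, 4 and 6 h of interferon-beta (IFN-beta, an antiviral cytokine, 100 U per ml). The pretreated arm had met interferon before and was sampled at the same times. Each arm and time had 1 library, and the labels do not give the age of the embryos, the passage of the cells, or how strong, how long and how long before sampling the pretreatment was. No library was unstimulated at 1 to 6 h, so an effect of IFN-beta and an effect of time in culture or handling cannot be told apart.

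Mitosis is started by CDK1, a kinase that is active only when bound to a cyclin, and is driven on by the Polo-like and Aurora kinases. Kinetochores, protein assemblies built on centromeres, hold chromosomes to spindle microtubules, and the spindle checkpoint delays anaphase until all are attached. The anaphase-promoting complex (APC/C) then marks securin and cyclin B for destruction, separase cuts the cohesin rings that hold sister chromatids, and a contractile ring splits the cell. Transcripts of these proteins peak in G2 and mitosis. Many of their promoters hold a CHR element (cell cycle genes homology region), where the MuvB core binds, with B-Myb and FoxM1 in proliferating cells and as the DREAM complex in resting ones. CCAAT boxes, bound by NF-Y, often lie close upstream of it.

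Depth over the kept transcripts was uneven, at 94.4 M to 151 M reads (M, mega) for the 0 and 1 h libraries, 109 M and 83.9 M at 2 h, and 241 M to 268 M at 4 and 6 h. Pretreated cells at 0 and 1 h had 3.90% and 2.85% of their reads in the ribosomal precursor Rn45s, while the remaining 8 libraries had 0.974% to 1.51%. All 8 fibroblast markers passed the filter, with a summed level of 7430 to 10741 RPKM. Within the pretreated arm that sum stood apart at 1 h and 4 h, with 9903 and 9210 RPKM against 7904, 7510 and 7430 RPKM at 0, 2 and 6 h. Of 6 macrophage markers 5 were under 1 RPKM in every library and Ptprc was at 0. The summed levels of the lists for macrophages, endothelial, epithelial, neural and muscle cells did not pass 5.46 RPKM in any library.

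The sequences below are shown because many members hold a CHR word, an element known from mitosis gene promoters but not used to choose genes. They come from RefSeq's GRCm38.p6 promoter table, in which 36 of the 42 members had an entry, 34 of these with a start within 100 bases of the measured transcript's. Stretches of 250 bases upstream of the start are given for the 4 members with the largest fall after stimulation and for Cenpe, the member that rose, which was added after its values were seen. Each is written 5′ to 3′ on the gene's strand, with CHR words (TTTGAA or its reverse complement) and CCAAT boxes (CCAAT or ATTGG) in capitals.
Ccnf (chr17:24251410-24251659, minus strand): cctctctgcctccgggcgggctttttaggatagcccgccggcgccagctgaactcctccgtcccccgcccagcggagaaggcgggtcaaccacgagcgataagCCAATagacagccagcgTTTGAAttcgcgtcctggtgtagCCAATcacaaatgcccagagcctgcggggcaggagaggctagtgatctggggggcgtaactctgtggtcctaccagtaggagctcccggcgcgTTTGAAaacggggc
Cdc20 (chr4:118437344-118437593, minus strand): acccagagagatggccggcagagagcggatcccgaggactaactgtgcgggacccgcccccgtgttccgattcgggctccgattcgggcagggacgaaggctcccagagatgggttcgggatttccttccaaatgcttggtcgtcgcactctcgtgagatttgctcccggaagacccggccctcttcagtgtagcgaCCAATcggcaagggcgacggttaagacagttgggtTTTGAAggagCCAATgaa
Ube2c (chr2:164769679-164769928, plus strand): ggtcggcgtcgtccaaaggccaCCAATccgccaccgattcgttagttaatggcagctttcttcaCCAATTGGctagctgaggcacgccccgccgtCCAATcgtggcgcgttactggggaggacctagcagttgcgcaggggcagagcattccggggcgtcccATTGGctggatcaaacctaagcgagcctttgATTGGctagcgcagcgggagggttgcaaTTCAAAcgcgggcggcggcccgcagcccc
Aurka (chr2:172370571-172370820, minus strand): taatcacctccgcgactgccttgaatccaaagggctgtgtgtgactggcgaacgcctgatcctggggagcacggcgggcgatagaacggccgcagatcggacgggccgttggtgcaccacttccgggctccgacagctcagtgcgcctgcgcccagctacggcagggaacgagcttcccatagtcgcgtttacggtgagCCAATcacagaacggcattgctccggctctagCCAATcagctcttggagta
Cenpe (chr3:135212313-135212562, plus strand): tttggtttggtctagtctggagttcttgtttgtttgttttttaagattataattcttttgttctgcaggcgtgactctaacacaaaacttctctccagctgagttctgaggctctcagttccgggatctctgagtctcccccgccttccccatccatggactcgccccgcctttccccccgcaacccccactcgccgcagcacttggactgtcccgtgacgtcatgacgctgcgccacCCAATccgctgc

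Ccnf held 2 CHR words and 2 CCAAT boxes in this stretch, and Cdc20 1 CHR word 18 bases before the start with 2 CCAAT boxes. Ube2c held 1 CHR word, on the opposite strand, and 6 CCAAT boxes, of which a neighbouring pair overlap. Aurka and Cenpe had no CHR word in these letters, and had 2 and 1 CCAAT boxes. A CHR word after the start was found in 18 of the 36 members with an entry. No share over other genes was taken for this stretch alone. The following short sites show it for 7 members, each the most highly expressed such member of its role group, with 10 bases on each side where the table reached.
Ccnb2 (chr9:70421535-70421560, minus strand): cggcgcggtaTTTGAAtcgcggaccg
Plk1 (chr7:122159455-122159480, plus strand): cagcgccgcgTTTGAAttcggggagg
Bub1b (chr2:118598241-118598260, plus strand): agacgttaaaTTTGAAactt
Cdca3 (chr6:124830196-124830221, plus strand): tggagggaagTTTGAAactccgggct
Cenpa (chr5:30666892-30666917, plus strand): cgggtgatttTTTGAActgctggcga
Hmmr (chr11:40733414-40733439, minus strand): ttgaggtaaaTTTGAAttcaggcgag
Racgap1 (chr15:99651636-99651661, minus strand): ggtgcgtgatTTTGAAccggatctgg

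The first base of these CHR words lay 5 (Ccnb2) to 41 (Bub1b) bases after the start. In the 250 bases before the start, searched on both strands for TTTGAA or TTCGAA, 14 of 36 members (38.9%) had a CHR word, against 11.8% of the 8813 promoters of genes tested here. For members the entry nearest the measured transcript's start was taken, and for the promoters compared the first entry listed for each gene. Kif2c, counted among the 14, has its entry 3852 bases from the measured start. Over the window from 250 bases before to 50 after the start, 29 of 36 members (80.6%) had a CHR word. The share was 13.4% over the promoters of genes tested and 19.4% over all 27025 promoters of the table. A CCAAT box was also found in 29 of 36 members (80.6%), against 39.3% of the genes tested and 37.9% of all promoters. CHR word and CCAAT box stood together in 26 of 36 members (72.2%), against 5.89% and 7.70%. An E2F-type word (TTTCGCGC or TTTGGCGC) was found in 1 of 36 members (2.78%), against 1.66% of the genes tested and 0.833% of all promoters. Such matches are descriptions of the letters, not measured binding.

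After stimulation nearly all of the mitosis genes stood lower. The summed level of the 42 genes was 2274, 2034, 1807, 849 and 986 RPKM at 0, 1, 2, 4 and 6 h in naive cells, and 1618, 1122, 1278, 692 and 861 RPKM in pretreated cells. The 4 and 6 h libraries of both arms were thus the lowest 4 of the 10. The naive 0 h library was the highest for 34 genes and the pretreated 4 h library the lowest for 39. These counts were not made over all genes tested. In edgeR's quasi-likelihood test of the mean of 2, 4 and 6 h against 0 h over both arms, 41 of 42 genes fell and 1, Cenpe, rose, at an adjusted p under 0.05. Of all genes tested 20.0% were called lower and 19.9% higher. The log2 change of the 42 genes had a median of -0.81 and a range of -1.52 to 0.47, beside a median of -0.01 over all genes, and their adjusted p lay between 0.00498 and 0.0302. With limma on log2(RPKM + 1) the calls over all genes leaned to the lower side, with 2987 lower and 2111 higher against 2438 and 2421 in edgeR, and the 42 genes split as before.

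**Figure D1:**
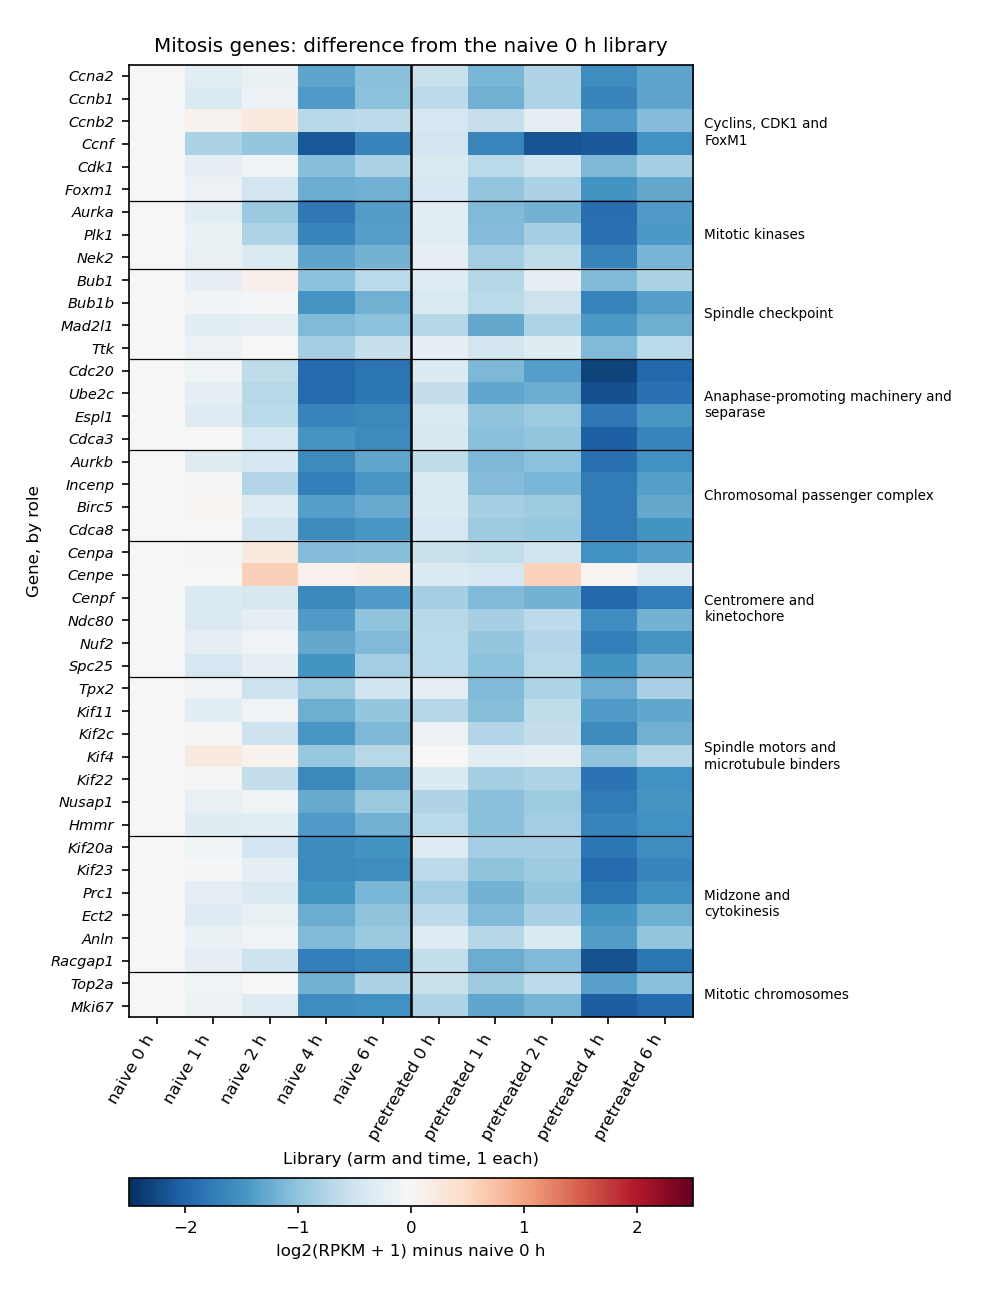
Level of each of the 42 mitosis genes (rows, grouped by role) in each of the 10 libraries (columns), as log2(RPKM + 1) minus the value in the naive 0 h library; blue is lower, red is higher. The 4 and 6 h columns of both arms are the bluest, and Cenpe is the reddest row at 2 h, with paler red for Ccnb2, Cenpa, Bub1 and Kif4, among others, at naive 2 h.

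The spread behind these p-values is the departure of the libraries from a sum of time and arm effects. No group had a second culture, so it is not a spread between cultures. In bulk RNA fewer cells in mitosis and less RNA per cell cannot be told apart. Without the naive 0 h library the test called 0 of the 42 genes at a median of -0.79, with 3 genes lower and 5 higher over all genes tested. The 4 and 6 h libraries were also the deepest and had the most of the nuclear RNAs Malat1 and Neat1. Malat1 stood at 108, 126, 161, 265 and 241 RPKM in naive and 113, 163, 143, 204 and 218 RPKM in pretreated cells, and Neat1 at 68.3, 102, 80.4, 139 and 159 RPKM and 79.7, 105, 75.9, 119.6 and 138 RPKM. Their part in the fall of the mitosis genes was not tested. Within each arm the late libraries were lowest for most genes: 40 genes were lower in both late naive libraries than in all 3 earlier ones, where 33.3% of all genes tested were, and 38 in the pretreated arm, against 20.2%. For 29 genes every 4 and 6 h library of both arms lay below every earlier library, against 11.5% of all genes tested.

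Role groups are described in turn, with the position of the measured transcript in mm10, and differences between the groups were not tested. Among the cyclins and their partners, all 6 genes fell, with a median of -0.70. Ccna2 (chr3:36564865-36571996), cyclin A2, which activates CDK2 and CDK1, stood at 129, 105, 113, 51.2 and 62.1 RPKM at 0, 1, 2, 4 and 6 h in naive cells and at 86.6, 58, 75.6, 43.4 and 51.2 RPKM in pretreated cells. Its late libraries were the lowest within each arm, but naive 6 h lay above pretreated 1 h. The log2 change was -0.68 (SE 0.12, adjusted p = 0.00787 in edgeR). Ccnb2 (chr9:70407689-70421554), cyclin B2, had 55.4, 59.2, 66, 34 and 35 RPKM in naive and 40.8, 36.6, 47.3, 20.2 and 25.6 RPKM in pretreated cells. It was highest at 2 h in both arms and lowest at 4 and 6 h, and its fall was the smallest of the 41, with a log2 change of -0.36 (SE 0.09, adjusted p = 0.0173 in edgeR). Ccnf (chr17:24223232-24251409), cyclin F, a substrate receptor of a ubiquitin ligase that does not activate a CDK, had 30.7, 17.3, 15.3, 6.26 and 9.09 RPKM in naive and 21.8, 9.27, 6.13, 6.44 and 10.03 RPKM in pretreated cells. It had already dropped at 1 h in both arms, and its pretreated 2 h library was the lowest of the 10. Its log2 change of -1.52 (SE 0.24, adjusted p = 0.00617 in edgeR) was the largest fall among the 42. Cdk1, the kinase itself, changed by -0.50, Ccnb1, cyclin B1, by -0.71, and Foxm1, the transcription factor of G2 genes, by -0.83 on the log2 scale.

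The 3 mitotic kinases fell with a median of -1.15. Plk1 (chr7:122159437-122169875), Polo-like kinase 1, which acts at centrosomes, kinetochores and the midbody, had 67.6, 60.2, 39.3, 20.8 and 25.5 RPKM in naive and 56, 31.2, 37.8, 17.9 and 24.4 RPKM in pretreated cells. Aurka (chr2:172356196-172370506), Aurora kinase A, which matures centrosomes and activates Plk1, had 54.9, 45.9, 28.5, 15.3 and 20.1 RPKM in naive and 44.7, 24.9, 23.8, 14.1 and 20.02 RPKM in pretreated cells. For both kinases all 4 late libraries lay below all 6 earlier ones, and the naive 2 h library was already well below the naive 1 h library. The log2 change was -1.15 (SE 0.16, adjusted p = 0.00530 in edgeR) for Plk1. For Aurka it was -1.26 (SE 0.15, adjusted p = 0.00498 in edgeR), the 4th largest fall. Nek2, a kinase of centrosome separation, changed by -0.98.

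The 4 genes of the spindle checkpoint fell with a median of -0.51. Mad2l1 (chr6:66535468-66540991), MAD2, the checkpoint protein that holds CDC20 inactive, had 56.7, 46.9, 47.6, 25.7 and 27.2 RPKM in naive and 34, 22.6, 32.6, 20.4 and 23.8 RPKM in pretreated cells. Its pretreated 1 h library lay below pretreated 6 h, so early and late libraries overlapped in that arm, and the log2 change was -0.56 (SE 0.15, adjusted p = 0.0247 in edgeR), a call lost without any 1 of the 0 h libraries or of naive 2, 4 and 6 h. Bub1b (chr2:118598211-118641592), BUBR1, which binds APC/C together with MAD2 and CDC20, had 38.7, 36.7, 37.7, 13.4 and 16.2 RPKM in naive and 29.4, 23.8, 26.3, 11.5 and 14.2 RPKM in pretreated cells. Its early and late libraries did not overlap, and in naive cells its course was nearly level to 2 h. The log2 change was -0.83 (SE 0.10, adjusted p = 0.00498 in edgeR). Bub1, the kinase that recruits the checkpoint to kinetochores, had 18.4, 15.9, 20.1, 8.57 and 11.2 RPKM in naive and 14.6, 10.8, 15.6, 8.10 and 10.3 RPKM in pretreated cells, was highest at 2 h in both arms, and changed by -0.42 (SE 0.10, adjusted p = 0.0166 in edgeR). Ttk, the kinase MPS1 that starts checkpoint signalling, had 13.1, 11.8, 13, 6.95 and 8.40 RPKM in naive and 11.2, 9.27, 10.4, 5.51 and 7.77 RPKM in pretreated cells. It was among the lowest expressed members, with no overlap of late and early libraries and a log2 change of -0.47 (SE 0.07, adjusted p = 0.00600 in edgeR).

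The largest median fall of a role group, -1.23, was in the 4 genes grouped as anaphase machinery, of which Cdca3 acts at mitotic entry. Ube2c (chr2:164769929-164772902), the ubiquitin-conjugating enzyme of APC/C and the most highly expressed of the 42, had 196, 168, 121, 50.6 and 55.8 RPKM in naive and 129, 79.6, 82.5, 42 and 52.9 RPKM in pretreated cells. Each naive library lay above the pretreated library of its time, all late libraries lay below all early ones, and the log2 change was -1.27 (SE 0.16, adjusted p = 0.00500 in edgeR). Cdc20 (chr4:118432901-118437343), the activator of APC/C in mitosis, had 45.1, 41.7, 28.8, 10.9 and 12 RPKM in naive and 35.2, 20.2, 16.8, 8.32 and 10.8 RPKM in pretreated cells. In both arms each library up to 4 h was lower than the one before, and 6 h was a little above 4 h. Its log2 change of -1.51 (SE 0.15, adjusted p = 0.00498 in edgeR) was the second largest fall, a 2.85-fold lower mean level. Cdca3 (chr6:124830176-124833701), an F-box-like protein known as a trigger of mitotic entry, had 99.2, 98.6, 72.9, 35.1 and 32.4 RPKM in naive and 74.8, 47.8, 49.5, 23.4 and 30.5 RPKM in pretreated cells. It was level over the first naive hour, was lowest in the late libraries of each arm, and changed by -1.12 (SE 0.15, adjusted p = 0.00520 in edgeR). Espl1, separase, changed by -1.20.

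**Figure D2:**
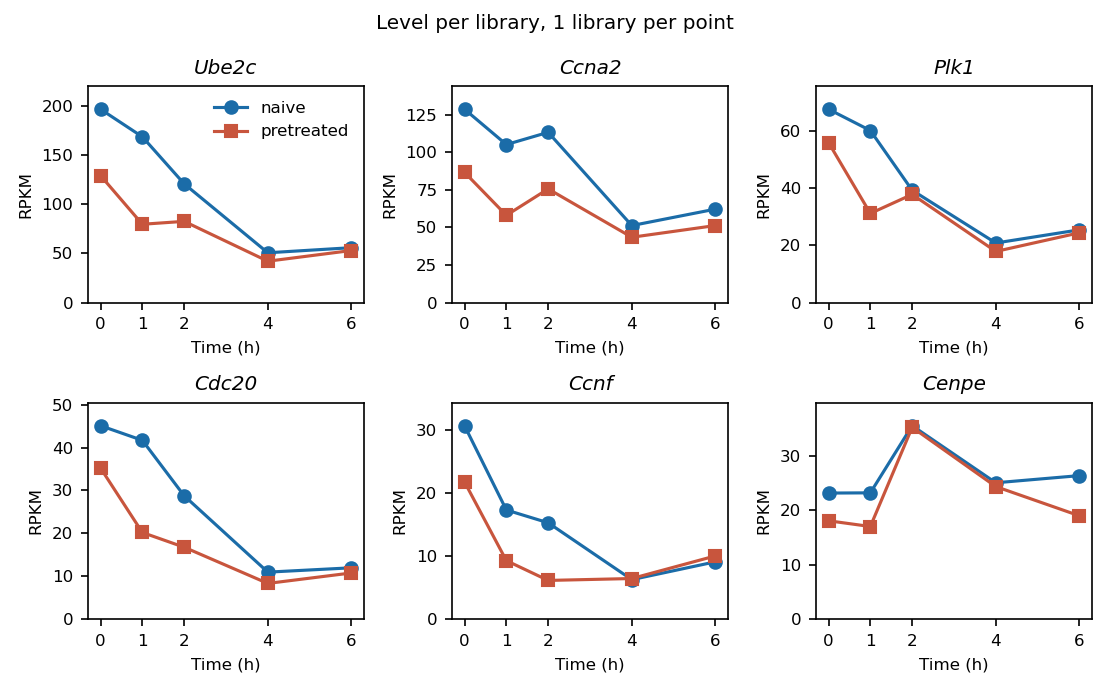
RPKM at 0, 1, 2, 4 and 6 h for 6 of the genes, with naive libraries as circles and pretreated libraries as squares, 1 library per point. Ube2c, Ccna2, Plk1, Cdc20 and Ccnf end below their 0 h level in both arms, with arms that lie close at 4 and 6 h, while Cenpe peaks at 2 h at 35.5 and 35.2 RPKM.

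The chromosomal passenger complex corrects wrong attachments and later guides cytokinesis, with Aurora B as its kinase. All 4 of its genes fell, within a narrow range around a median of -1.01. Birc5 (chr11:117849237-117855743), survivin, had 98.8, 102, 78.7, 37.5 and 40.7 RPKM in naive and 78, 55, 53.2, 28.8 and 39.9 RPKM in pretreated cells. The naive 0 and 1 h libraries were alike and all late libraries were lowest, with a log2 change of -0.92 (SE 0.14, adjusted p = 0.00552 in edgeR). Incenp (chr19:9872297-9899533), the scaffold of the complex, had 54.5, 53.6, 32.6, 15.9 and 19.2 RPKM in naive and 41.8, 25.2, 24.1, 15.5 and 20.4 RPKM in pretreated cells. It was much lower at 2 h than at 0 h in both arms, and changed by -1.14 (SE 0.19, adjusted p = 0.00700 in edgeR). Aurkb, Aurora B, changed by -0.94 and Cdca8, borealin, by -1.07.

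Centromere and kinetochore genes held both directions, with 5 of 6 lower, 1 higher and a median of -0.63. Cenpa (chr5:30666902-30674826), the histone H3 variant that marks centromeres, had 47, 45.8, 55.9, 21.7 and 21.9 RPKM in naive and 31.5, 30.2, 32.8, 15.8 and 17.5 RPKM in pretreated cells. It was highest at 2 h in both arms, had no overlap of late and early libraries, and changed by -0.56 (SE 0.08, adjusted p = 0.00552 in edgeR). Cenpe (chr3:135212563-135273540), the kinesin motor CENP-E that moves chromosomes to the spindle equator, had 23.1, 23.2, 35.5, 25 and 26.3 RPKM in naive and 18, 17, 35.2, 24.3 and 18.9 RPKM in pretreated cells. It was highest at 2 h in both arms, at nearly the same level, and stood above its 0 h level in all 6 libraries from 2 h on. Its log2 change was 0.47 (SE 0.13, adjusted p = 0.0302 in edgeR). The adjusted p of Cenpe was 0.0530 to 0.167 without any 1 of naive 0 h, naive 6 h, pretreated 0 h, pretreated 2 h and pretreated 4 h, where the call was lost, and the direction held. With 4 and 6 h alone against 0 h its log2 change was 0.29 with an adjusted p of 0.138 in edgeR. Of the other members, Cenpf, a large kinetochore protein, changed by -1.03, and the NDC80 complex genes, whose products grip microtubule ends, changed by -0.64 (Ndc80), -0.70 (Nuf2) and -0.63 (Spc25).

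All 7 genes for spindle motors and microtubule binders fell, with a median of -0.66. Tpx2 (chr2:152847964-152895321), which activates Aurora A on the spindle and nucleates microtubules, had 98.2, 92, 67.5, 51.7 and 69.1 RPKM in naive and 83.8, 45.4, 56.9, 40.8 and 55.3 RPKM in pretreated cells. Its course differed from most, since early and late libraries overlapped in both arms: naive 6 h was above naive 2 h and pretreated 6 h above pretreated 1 h. Its log2 change was -0.63 (SE 0.16, adjusted p = 0.0203 in edgeR). Nusap1 (chr2:119618298-119650160), which bundles spindle microtubules near chromosomes, had 38, 33.2, 35, 15.2 and 19.5 RPKM in naive and 22.1, 18, 20.2, 10.7 and 13.1 RPKM in pretreated cells. Late libraries were lowest within each arm, and each pretreated library was below its naive counterpart, with a log2 change of -0.66 (SE 0.09, adjusted p = 0.00520 in edgeR). Among the kinesins, Kif22, which pushes chromosome arms, and Kif2c, which takes microtubules apart, changed by -1.09 and -1.01, while Kif11, the motor that separates spindle poles, and Kif4, a chromosome-bound motor, changed by -0.55 and -0.57. Hmmr, a spindle pole protein, changed by -0.80.

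The 6 genes of the spindle midzone and cytokinesis fell with a median of -0.85. Kif20a, a kinesin that brings the passenger complex to the midzone, had 134, 124, 96.4, 44.5 and 46.7 RPKM in naive and 106, 73.8, 75, 37.7 and 44.8 RPKM in pretreated cells. Racgap1 (chr15:99620496-99651656), the GTPase-activating subunit of centralspindlin, had 119, 102, 81.7, 35.5 and 37.9 RPKM in naive and 77.1, 49.8, 54.7, 25.8 and 32.8 RPKM in pretreated cells. In both genes the 4 late libraries were the lowest 4, and naive 0 h was the highest library. The log2 change was -1.07 (SE 0.12, adjusted p = 0.00498 in edgeR) for Kif20a. For Racgap1 it was -1.14 (SE 0.13, adjusted p = 0.00498 in edgeR). Kif23, the motor subunit of centralspindlin, changed by -0.96, Prc1, which crosslinks midzone microtubules, by -0.75, Ect2, which activates RhoA for the contractile ring, by -0.62, and Anln, anillin, a scaffold of that ring, by -0.59.

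Of the 2 genes of mitotic chromosomes, Top2a (chr11:98992947-99024189), topoisomerase II alpha, which untangles sister DNA, had 105, 97.8, 106, 45.6 and 60.2 RPKM in naive and 71.1, 56.2, 66.3, 40.4 and 50.1 RPKM in pretreated cells. In naive cells it was near its 0 h level until 2 h, and its log2 change was -0.50 (SE 0.13, adjusted p = 0.0219 in edgeR), a call lost without any 1 of the 0 h libraries, naive 6 h and pretreated 2 h. Mki67 (chr7:135689788-135716379), the Ki-67 protein that coats mitotic chromosomes and serves as a marker of proliferation, had 65.9, 60.3, 52.4, 22 and 22.6 RPKM in naive and 38.4, 26.2, 28.9, 15.1 and 16.7 RPKM in pretreated cells. All of its pretreated libraries lay below the naive ones of the same time, all late libraries below all early ones, and the log2 change was -0.9997 (SE 0.14, adjusted p = 0.00529 in edgeR).

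**Figure D3:**
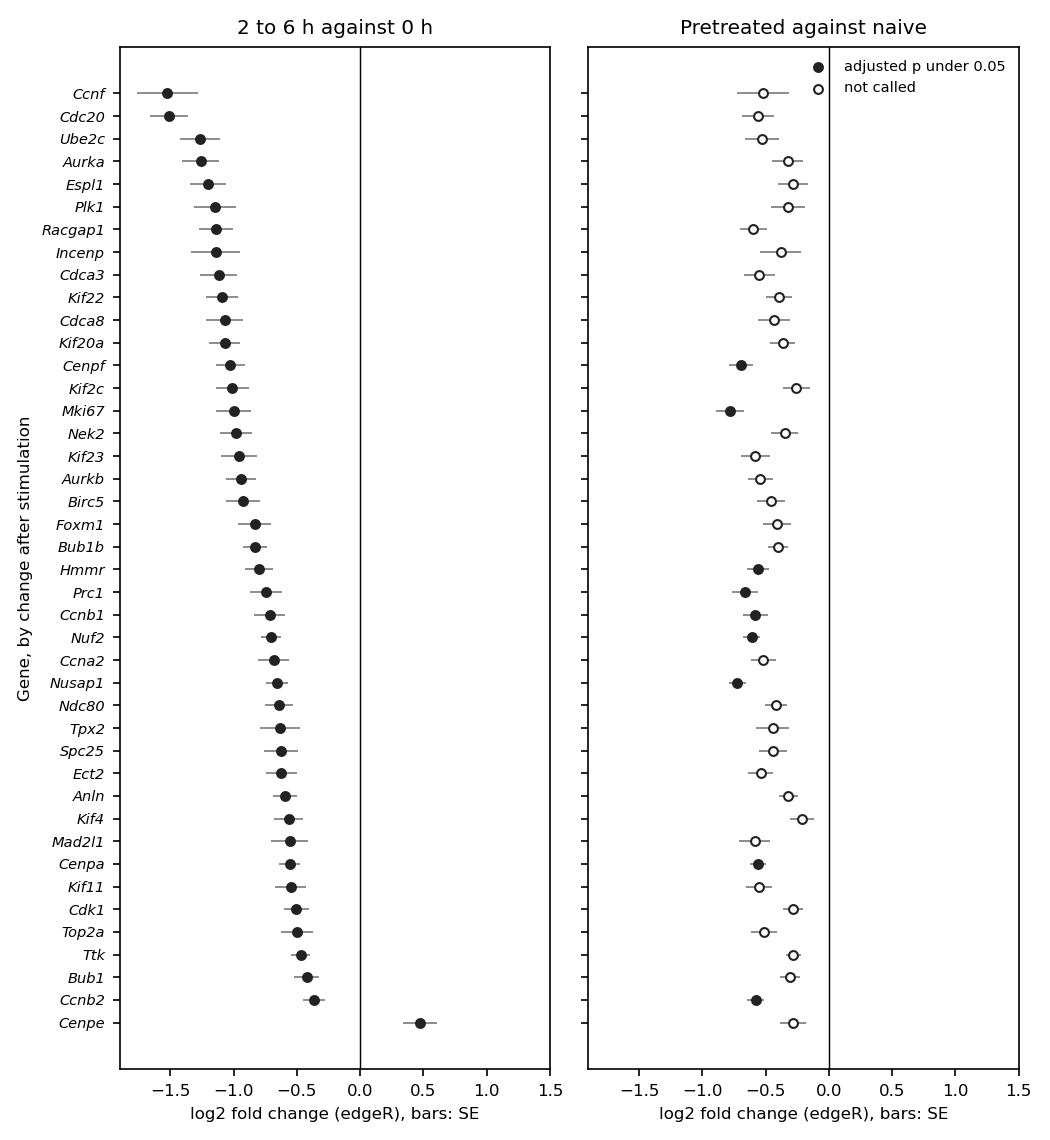
Log2 fold change of each of the 42 genes with its standard error, for 2 to 6 h against 0 h (left) and for pretreated against naive (right), from edgeR; filled points passed an adjusted p of 0.05. On the left 41 filled points lie below 0 and Cenpe above, and on the right all 42 points lie below 0 with 9 of them filled.

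Most of the 2-fold falls appeared between 2 and 4 h. Counting a gene as apart at a 2-fold difference of log2(RPKM + 1) between 2 libraries, with no test, 0 of 42 genes were 2-fold lower in naive cells at 1 h (0.181% of all genes tested) and 0 at 2 h (1.27%). At 4 h 37 were 2-fold lower (3.19%) and at 6 h 30 (3.70%). The median log2 difference from naive 0 h was -0.18, -0.31, -1.41 and -1.16 at 1, 2, 4 and 6 h. The 5 that were not 2-fold lower at 4 h were Ccnb2, Ttk, Cenpe, Tpx2 and Kif4. In pretreated cells 1 gene (Ccnf) was 2-fold below its own 0 h library at 1 h (0.255% of all genes tested) and 2 (Ccnf and Cdc20) at 2 h (1.11%). At 4 h 24 genes were 2-fold lower (1.92%) and at 6 h 13 (0.616%), with medians of -0.47, -0.23, -1.08 and -0.86 over the 4 times. No member was 2-fold above its 0 h library at any time in either arm. Medians over all genes tested lay between -0.09 and 0.01 in these 8 comparisons.

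From 4 to 6 h the genes moved back up by a little. In naive cells 41 of 42 were higher at 6 h than at 4 h, with a median log2 difference of 0.24, and Cdca3 was the exception at -0.11. In pretreated cells 41 of 42 were higher, with a median of 0.31, and Cenpe was the exception at -0.34. None of these differences reached 2-fold. The medians over all genes tested were 0.00 and 0.07.

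At 2 h the changes of the 42 genes ranged from large drops to rises. Ccnf, Aurka, Plk1, Incenp and Cdc20 were at -0.96, -0.92, -0.77, -0.73 and -0.63 log2 units from 0 h in naive cells and at -1.67, -0.88, -0.55, -0.77 and -1.03 in pretreated cells. Ccnb2, Bub1, Cenpa and Cenpe were above their 0 h libraries in both arms. Ccnb2 stood at 0.25 and 0.21, Bub1 at 0.12 and 0.09, Cenpa at 0.25 and 0.05 and Cenpe at 0.60 and 0.93. Across the 42 genes the 2 h changes of the arms, which share no library, had a Spearman correlation of 0.87, and the 4 h changes one of 0.77. These are descriptions over genes measured in the same 4 libraries, and genes are not independent replicates. The 2 h libraries held 109 M and 83.9 M reads, beside 94.4 M and 129 M at 0 h.

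**Figure D4:**
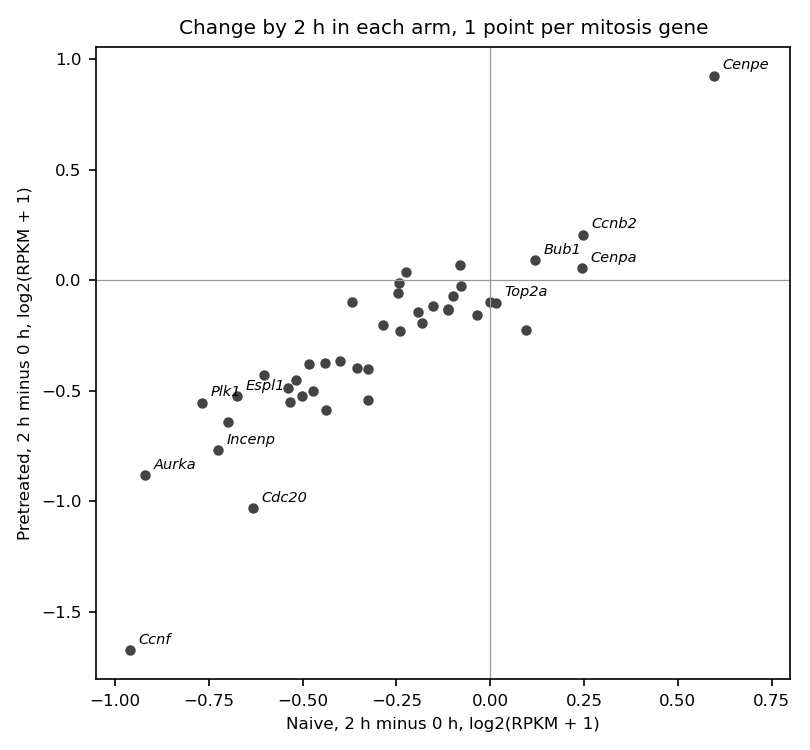
Difference between 2 h and 0 h in log2(RPKM + 1) for the naive arm (horizontal) and the pretreated arm (vertical), 1 point per gene, with 11 genes named. Ccnf lies lowest on both axes, Cenpe highest, and Ccnb2, Bub1 and Cenpa lie above 0 on both.

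The test of 1 h against 0 h over both arms called 0 of the 42 genes in edgeR, as it called 0% of all genes tested. All 42 log2 changes were below 0, with a median of -0.32 against 0.00 over all genes. Unadjusted p was under 0.05 for 12 members and 1383 of all genes, and the smallest adjusted p of a member was 0.361, for Ccnf, at a log2 change of -1.02. DESeq2's Wald test called 1 member, Ccnf, and 68 lower and 168 higher over all genes, and limma called 0 members. Against its own 0 h library, 37 of 42 genes were lower at 1 h in naive cells and all 42 in pretreated cells. Ccnf went from 30.7 to 17.3 RPKM in naive and from 21.8 to 9.27 RPKM in pretreated cells. Ube2c went from 196 to 168 RPKM and from 129 to 79.6 RPKM. From 1 to 2 h 35 of 42 genes were higher in pretreated cells and 19 of 42 in naive cells. The median log2 differences were 0.16 and -0.13, beside -0.05 and -0.02 over all genes tested. For most members the pretreated 1 h library thus lay below both pretreated 0 h and pretreated 2 h. That library also had the second highest share of Rn45s. Its summed fibroblast markers were at 9903 RPKM, against 7904 and 7510 RPKM at pretreated 0 and 2 h. The part of these in its low levels was not tested.

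Pretreated libraries had less of the mitosis transcripts than naive libraries. With 1 library per arm and time, an effect of pretreatment and a difference between the cultures of the arms cannot be told apart. At 0 h all 42 genes were lower in the pretreated library, with a median log2 difference of -0.43 and 0 genes 2-fold apart (0.838% of all genes tested were 2-fold lower). The gap was widest at 1 h, with all 42 lower, a median of -0.79 and 8 genes 2-fold lower (0.814%): Mad2l1, Cdc20, Ube2c, Cdca3, Incenp, Tpx2, Racgap1 and Mki67. At 2 h all 42 were lower with a median of -0.52, and 1, Ccnf, was 2-fold lower (0.953%). It narrowed to a median of -0.25 at 4 h, with 40 lower and 0 2-fold lower (0.131%), and to -0.18 at 6 h, with 38 lower and 0 2-fold lower (0.214%). Medians over all genes were -0.03 to 0.05. At all 5 times the pretreated library was the lower for 37 of 42 genes, against 9.77% of all genes tested. The other 5 were Ccnf, Nek2, Espl1, Incenp and Spc25, each above naive only at 4 or 6 h.

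**Figure D5:**
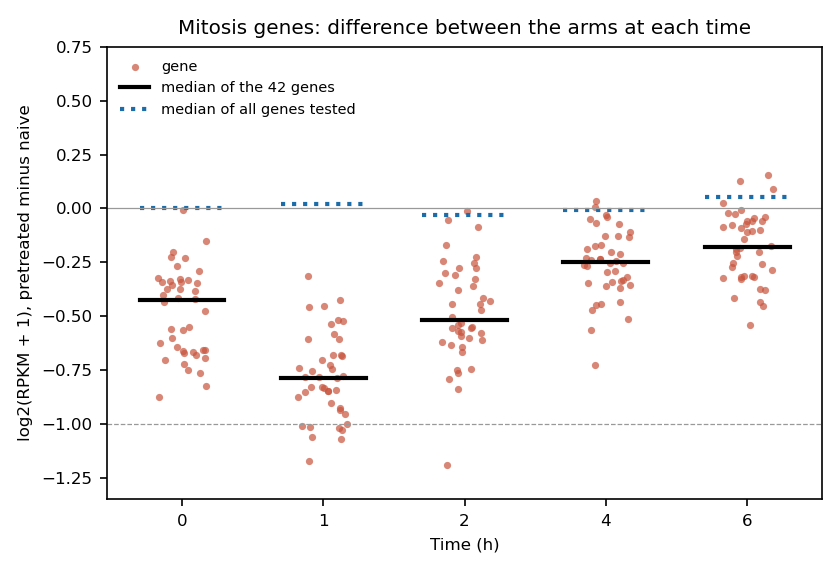
Difference between the pretreated and the naive library at each time in log2(RPKM + 1), 1 point per gene; black bars are medians of the 42 genes, dotted bars medians of all genes tested, and the dashed line marks a 2-fold lower level. The medians of the 42 genes are -0.43, -0.79, -0.52, -0.25 and -0.18 from 0 to 6 h.

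In the test of the arms within time points, 9 of 42 genes were lower in pretreated cells at an adjusted p under 0.05 in edgeR and 0 were higher, where 0.879% of all genes tested were called lower. The spread behind the p-values of this test is again not a spread between cultures. The log2 differences of the 42 ran from -0.78 (Mki67) to -0.21 (Kif4) with a median of -0.48, beside 0.00 over all genes, and 41 had an unadjusted p under 0.05, as 2660 of all genes tested did, 1488 of them lower. The 9 were the cyclins Ccnb1 and Ccnb2, the centromere and kinetochore genes Cenpa, Cenpf and Nuf2, the microtubule binders Nusap1, Hmmr and Prc1, and Mki67. Mki67 differed by -0.78 (SE 0.11, adjusted p = 0.0362 in edgeR) and Nusap1 by -0.72 (SE 0.07, adjusted p = 0.0171 in edgeR). Nuf2 differed by -0.61 (SE 0.07, adjusted p = 0.0171 in edgeR) and Ccnb2 by -0.58 (SE 0.07, adjusted p = 0.0213 in edgeR). The kinases Aurka and Plk1, with larger falls after stimulation, differed between the arms by -0.33 and -0.32 and were not called. These calls were not stable to the libraries used. Leaving out 1 library at a time, 0 of the 42 were called in 8 of 10 cases. There were 11 calls without naive 4 h, 14 without pretreated 4 h and 0 without both pretreated 1 h and 4 h. In the 8 cases 2 to 5 genes were called lower over all genes tested, against 107 with all libraries. The median of the 42 stayed at -0.39 to -0.55 in them. Leaving out a library also takes the other library of its time out of the arm term. The 10 cases are thus not separate, and fewer degrees of freedom remain, so they do not show which libraries the calls rest on. With DESeq2's Wald test 35 were called and with no filter on low values 18. The fibroblast markers differed between the arms by a median of -0.29, with 0 of 8 called, and their part and that of Rn45s in the lower levels were not tested.

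Whether the arms differed in their change from 0 h to all later times, 1 h included, was tested with a term for arm by stimulation. It called 0 of the 42 genes and 0% of all genes in edgeR. No member had an unadjusted p under 0.05, as 741 of all genes did, and limma and DESeq2 called 0 members, where DESeq2 called 121 genes lower and 12 higher and limma 14 and 1. The median of the members was 0.03, with a range of -0.27 (Tpx2) to 0.39 (Ndc80), and the median standard error was 0.27. Differences of about this standard error were not detectable, and the arms are not shown to respond alike. The term pools times at which the gap between the arms moved in opposite directions. Its median went from -0.43 at 0 h to -0.79 at 1 h, and to -0.25 and -0.18 at 4 and 6 h, so changes can cancel. Without the pretreated 1 h library the median of the term was 0.16.

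Other genes of mitosis were given by lists beside the 42. Among 29 further spindle, midzone and cytokinesis genes 26 fell and 0 rose in the test of 2 to 6 h against 0 h, with a median of -0.77. The leading genes were Fam83d, which aligns chromosomes, at -1.41 and Depdc1b, which acts in cell detachment at mitotic entry, at -1.32. Of 31 further centromere, kinetochore and checkpoint genes 17 fell and 0 rose, with a median of -0.37. Cenpm, of the inner kinetochore, changed by -1.15 and Ska1, which tracks microtubule ends, by -1.09. Among 18 CDK1 regulators and further kinases 10 fell and 0 rose (median -0.40), with the CDK1 phosphatase Cdc25b at -1.07 and the CDK1-inhibiting kinase Pkmyt1 at -0.9956. Of 17 APC/C subunits and inhibitors 9 fell and 0 rose (median -0.28), led by the RING subunit Anapc11 at -0.85 and the activator Fzr1 (CDH1) at -0.77. The shares are read against 20.0% of all genes tested called lower, and differences between the lists were not tested.

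Of 22 genes of condensins, cohesin and securin 9 fell and 4 rose, with a median of -0.26, and the share that rose was near the 19.9% of all genes tested called higher. Ncapd2, a condensin subunit, changed by -1.23 and the cohesin subunit Stag2 by 0.84, and the cohesin loader Nipbl and unloader Wapal by 0.30 and 0.32. Pttg1, securin, which holds separase inactive, had 32.1, 32.1, 44.3, 68.4 and 88.8 RPKM in naive and 39, 50.02, 62.7, 73.2 and 74.9 RPKM in pretreated cells. It rose with time in both arms, with a log2 change of 1.01 (SE 0.19, adjusted p = 0.00856 in edgeR). Separase itself, Espl1, had 20.4, 16.2, 12.4, 5.78 and 6.02 RPKM and 15.5, 9.67, 10.5, 5.21 and 6.81 RPKM and changed by -1.20, so the inhibitor and its target moved in opposite directions.

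Of 18 tested genes for the transcription factors of the cell cycle (MuvB, B-Myb, E2F and pocket proteins) 7 fell and 2 rose, beside 20.0% and 19.9% of all genes tested, and the median was -0.12. The repressors E2f7 and E2f8 changed by -1.20 and -1.14 and B-Myb (Mybl2) by -0.68. The MuvB subunit Lin37 changed by -1.01, E2f4 by -0.71, Tfdp1, a partner of E2F proteins, by -0.37 and the pocket protein gene Rbl2 (p130) by -0.26. The pocket protein gene Rbl1 (p107) rose by 0.79 and the MuvB subunit Lin54, which contacts the CHR, by 0.25. Of 39 genes of DNA replication and S phase 27 fell and 1 rose, with a median of -0.54. Tk1, thymidine kinase, changed by -1.02 and Pold1, a subunit of DNA polymerase delta, by -1.01, while Mcm6, a helicase subunit, rose by 0.87.

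Over all 188 tested genes of the lists beside the 42, the test of the arms called 7 lower (3.72%, against 0.879% of all genes tested) and 0 higher. They were the spindle and cytokinesis genes Kif14, Aspm, Ckap2, Tacc3 and Shcbp1, the centromere gene Cenpm and the condensin gene Smc2.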

How the data were processed

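The genes and the lists were chosen with earlier results of these data known, so they are no independent support for any pattern. Per the submitters' processing notes Bowtie, TopHat, Cufflinks 1.2.1 and the build mm10 were used, with no role or order. Per the file headers the deposited table gives, for each RefSeq transcript, a read count and an RPKM for every library. Counts were deposited without normalisation, and RPKM was computed by the authors. Count over RPKM departed from 1 factor per library and transcript by at most 0.000167 log2 units over 10637 transcripts. Counting tool, strand and treatment of reads with several alignments are not given in sources used here, so overlapping or near-identical genes cannot be separated. Rows without a gene name (15 of 30646 transcripts, 0.0157% to 0.0193% of counts) were left out. For the 4306 symbols with several transcripts, 9 members among them, the one of highest mean RPKM was kept. Genes at 1 RPKM or more in at least 2 libraries were tested.

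Counts were fitted with edgeR 4.0.16 (R 4.3.3, glmQLFit and glmQLFTest, TMM scaling) on time and arm, which leaves 4 residual degrees of freedom, or with arm by stimulation added, which leaves 3. Two-sided p-values were adjusted over 12168 genes by the Benjamini-Hochberg method, and a standard error is the log2 fold change over the root of F. Alternatives used limma 3.58.1 and DESeq2 1.42.0. Comparisons of 2 libraries used log2(RPKM + 1), which understates folds of low genes. Values in every library are given for the 2 members of highest mean RPKM in each role group, the 4 largest falls, the 4 smallest changes and any member called against the rest. From each other list the 2 largest called changes and those called against most of the list are named. Mybl2, Lin37, E2f4, Tfdp1, Rbl2, Nipbl and the genes of other lists called between the arms were named after their values were seen.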

Additional observations from a re-analysis of the deposited data

How the results depend on the processing

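The fall after stimulation (41 genes lower, Cenpe higher) was the same with DESeq2 size factors, DESeq2's Wald test, limma with either pseudocount, quantile normalisation in limma (chosen after seeing the data), no filter, a 5 RPKM filter and summed transcripts. Leaving out 1 library at a time gave 0 to 41 genes lower. The 0 came without naive 0 h, when the 0 h level rests on 1 library, and 35 remained called without pretreated 0 h, when Ccnb2, Bub1, Mad2l1, Cenpe, Tpx2, Kif4 and Top2a were lost. With 4 and 6 h alone against 0 h 41 genes were lower, with 2445 lower over all genes, 36 without naive 0 h and 40 without pretreated 0 h (both chosen after seeing the data). Quantile normalisation gave 3115 genes lower and 2023 higher over all genes. The 1 h test called 1 gene with DESeq2's Wald test, and 0 in every leave-out.

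The arm test called 9 genes, and 35 with DESeq2's Wald test, 18 without the filter, 14 with quantile normalisation and 0 without pretreated 1 h and 4 h, with 0 to 14 over the leave-outs. The interaction called 0 throughout and could not be fitted without either 0 h library. The cause of these shifts was not tested. Of the 2-fold counts, naive 2 h gave 1 with a pseudocount of 0.1 RPKM. A pseudocount of 5 RPKM, which shrinks every fold, gave 0 for pretreated 1 h, 1 for pretreated 2 h, 7 for pretreated 6 h, 2 for the arms at 1 h and 0 for the arms at 2 h. TMM-scaled counts per kilobase gave 1 for pretreated 2 h. With the pseudocount of 5 RPKM the medians were -1.17 and -1.01 for naive 4 and 6 h, -0.94 and -0.69 for pretreated 4 and 6 h, and -0.66 for the arms at 1 h. No member reversed direction in the test of 2 to 6 h against 0 h under the settings tried, and none of the 9 did in the arm test. Directions of the other genes named, and those in the other tests, were not compared between settings. The arms were compared within time points throughout, and the labels give no other pairing of libraries. Depth did not limit single values, since the least covered member had 1585 reads, but the single library per group limits every comparison.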

Other observations

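Genes that act before S phase, at the point where cells commit to the cycle, had a smaller median change than the mitosis genes. Of 14 tested G1 cyclins, their kinases and CDK inhibitors 4 fell and 1 rose in edgeR's test of 2 to 6 h against 0 h, with a median of -0.10, where 20.0% of all genes tested were called lower and 19.9% higher. Cdkn1a, the CDK inhibitor p21, had 140.5, 120.1, 70.4, 77.8 and 81.3 RPKM in naive and 102, 88.2, 70.3, 96.5 and 85.6 RPKM in pretreated cells, with a log2 change of -0.52 (SE 0.16, adjusted p = 0.0343 in edgeR). Cdk4, the kinase of the D-type cyclins, changed by -0.52 (SE 0.10, adjusted p = 0.0100 in edgeR). Ccnd2, cyclin D2, rose by 0.42 (SE 0.09, adjusted p = 0.0105 in edgeR), and no gene of the list was called between the arms. The difference between this list and the mitosis genes was not tested.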
